A study of Homo sapiens with 4 samples.

Results

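The genes described here are 37 genes of the DNA damage response and of DNA repair, picked by name with earlier results of these data known, out of 23228 gene symbols with counts. They were grouped by role as checkpoint signalling, homologous recombination, the Fanconi pathway, end joining, mismatch repair, base excision, nucleotide excision and direct reversal. The cells were U87 MG, an established human glioblastoma line, cultured in DMEM with serum. They received siRNA against PELP1 (2 libraries) or a control siRNA (2 libraries), both delivered with oligofectamine, and RNA was collected at 72 hours. PELP1 is a scaffold protein of nuclear receptor and chromatin complexes, and an siRNA is a short duplex RNA that triggers destruction of an mRNA it matches.

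A double-strand break is sensed by the MRN complex (MRE11, RAD50 and NBN), which activates the kinase ATM, whereas the kinase ATR responds to single-stranded DNA at stalled replication forks. A break is then either rejoined directly by end joining, which starts with the Ku proteins, or copied from the sister chromatid by homologous recombination. The Fanconi pathway unhooks crosslinks between DNA strands, the mismatch and excision pathways replace wrong or damaged bases, and MGMT takes alkyl groups off guanine, which bears on how glioblastoma responds to the alkylating drug temozolomide.

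The reads assigned to genes came to 19389684 and 18670162 in PELP1 siRNA libraries 1 and 2, and to 19662271 and 22858988 in control libraries 1 and 2. Levels are CPM, a gene's count relative to the size of its library, with library sizes scaled by the trimmed mean of M-values (TMM), and fold changes are PELP1 siRNA over control siRNA on the log2 scale. PELP1 held 15.2 and 17.7 CPM in the PELP1 siRNA libraries, against 74.0 and 78.1 CPM in the control libraries (log2 fold change -2.21, SE 0.097, adjusted p = 8.32e-14, edgeR quasi-likelihood test). The pair of PELP1 siRNA libraries differed more than the control pair, with a chi-square per gene of 7.13 against 2.09, where 1 is sampling noise alone. Nothing in the labels says that the duplicates came from separate cultures, so p-values measure only the spread between these libraries, which may be technical. Marker levels below are CPM of the total gene counts, without TMM scaling. Of 12 markers of glioblastoma lines, VIM, CD44, FN1 and TNC were abundant (VIM 5699 to 6998 CPM). GFAP and OLIG2 held 1.24 to 2.19 CPM, and S100B and SOX2 under 1 CPM. The summed level of these 12 was 13619 and 14188 CPM in the PELP1 siRNA libraries, against 16028 and 15870 CPM in the control libraries. Markers of epithelial cells (1.63 to 1.98 CPM in sum), melanocytes (0.787 to 1.29 CPM) and endothelium (11.1 to 15.1 CPM) were near absent, with TYR and CLDN5 at 0. Those of neurons summed to 59.9 and 65.3 CPM with PELP1 siRNA, against 73.3 and 77.9 CPM with control siRNA. Among 7 immune markers only CD68 exceeded 1 CPM, and CD3E was at 0. In RNA from many cells, fewer cells with a transcript and less of it per cell cannot be told apart.

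Of the 37 genes, 36 passed the filter on low counts, and MGMT, with no read in any library, did not. PELP1 siRNA raised 3 of the 36 (BRCA1, CHEK2 and FANCD2) and lowered 6 (XRCC2, RAD50, MRE11A, FANCI, WRN and TP53BP1) past an adjusted p of 0.05, and 27 stayed short of it (edgeR's quasi-likelihood test, Benjamini-Hochberg adjustment over 13234 genes). That is 25% of the repair genes, beside 27.9% of all genes tested (12.9% higher and 15% lower) and 32.2% of the 9552 genes at least as abundant as the least abundant repair gene. In this fit the share of repair genes called was no larger than the share of all genes, and the order turned in others, such as 47.2% of the 36 beside 36.7% of all genes with the GC trend removed, and 55.6% beside 41% without PELP1 siRNA library 1. The size of change, as an absolute log2 fold change, had a median of 0.31 over the 9, beside 0.40 over all genes called. Of the 36 repair genes tested, 1 (XRCC2) was called with a change of at least 1.5-fold, beside 7.27% of all genes tested. Over the 36, fold changes ran from -0.59 to 0.34 with a median of -0.029, beside a median of 0.00088 over all genes. The libraries of the groups did not overlap for 28 of 36 repair genes, and for 64.2% of all genes.

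All 9 genes called belonged to checkpoint signalling, homologous recombination or the Fanconi pathway, where 9 of 20 were called. None of the 16 tested genes of end joining, mismatch repair and excision repair passed the threshold with edgeR, DESeq2's Wald test or limma-voom, and with edgeR 3 of these 16 had an unadjusted p under 0.05 (XRCC6, EXO1 and ERCC2). Other fits called some of the 16, and the difference between these roles was not itself tested. Scaling by total counts called 9 of the 20 and 1 of the 16 (XRCC6), beside 29.2% of all genes. Removal of each library's trend on transcript GC content, an alternative chosen after seeing the data, gave 14 of the 20 and 3 of the 16 (XRCC6, LIG4 and EXO1), beside 36.7% of all genes instead of 27.9%. Leaving out 1 library moved the number of repair genes called, up without either PELP1 siRNA library and down without either control library. The number of all genes called moved the same way. Some of the 16 were called without either PELP1 siRNA library.

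**Figure D1:**
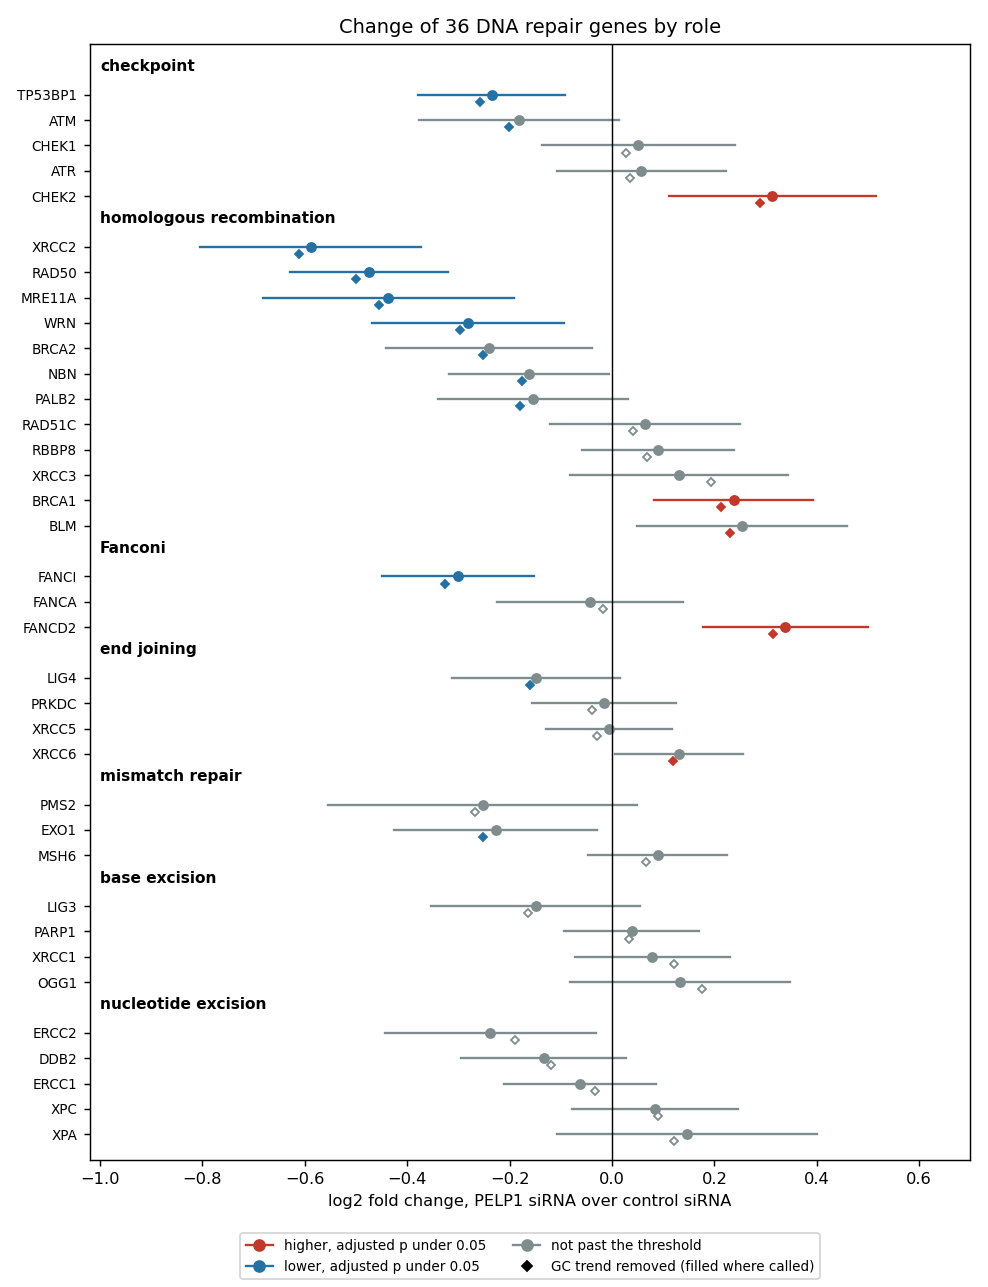
Log2 fold change (x axis, PELP1 siRNA over control siRNA) of 36 repair genes, grouped by role; circles are estimates with their 95% intervals over 2 libraries a group, red where higher and blue where lower at an adjusted p under 0.05, and diamonds are estimates with the GC trend removed. The 9 coloured circles all lie in the upper 3 groups, and estimates run from -0.59 (XRCC2) to 0.34 (FANCD2).

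Homologous recombination held the single genes with the lowest fold changes of the set, XRCC2, RAD50 and MRE11A. Of its 12 genes, 1 was higher, 4 were lower and 7 did not pass the threshold. Their median log2 fold change was -0.16, beside -0.23 over the 3 genes of mismatch repair, and 5 of the 12 had a positive one. The sensor of breaks fell in part: RAD50 and MRE11A passed the threshold downward and their partner NBN did not.

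RAD50 (GRCh37 chromosome 5, 131891711 to 131982041, plus strand), the coiled-coil ATPase that tethers broken ends, held 111 and 96.4 CPM with PELP1 siRNA, against 146 and 143 CPM with control siRNA. The means were 104 ± 10.5 and 144 ± 2.22 CPM (SD, n = 2 libraries each), and the level fell by 28.1% (log2 fold change -0.48, SE 0.074, adjusted p = 3.87e-05, edgeR). Both PELP1 siRNA libraries lay below both control libraries, and 8.9% of all genes tested had a lower fold change. In the annotation, 76.9% of its exon bases are shared with a read-through gene model on the same strand. MRE11A (GRCh37 chromosome 11, 94148736 to 94227051, minus strand; MRE11 in the annotation), the nuclease that trims the ends, held 15.03 and 11.9 CPM, against 18.1 and 18.4 CPM with control siRNA. It fell by 26.1% (log2 fold change -0.44, SE 0.119, adjusted p = 0.00758, edgeR; 0.0619 without control library 1 and 0.0800 without control library 2). NBN, which brings the complex to ATM, held 115 and 99.3 CPM, against 120 and 120 CPM with control siRNA, and missed the threshold (log2 fold change -0.16, 95% interval -0.32 to -0.0054, adjusted p = 0.116). NBN was called lower with the GC trend removed (-0.18, adjusted p = 0.0129), so all 3 subunits then were.

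XRCC2 (GRCh37 chromosome 7, 152341861 to 152373278, minus strand) encodes a recombinase paralog that acts in strand exchange, and it fell furthest. It held 24.6 and 19.97 CPM with PELP1 siRNA, against 34.8 and 32.3 CPM with control siRNA. Its level fell by 33.5% (22.3 ± 3.25 and 33.5 ± 1.73 CPM, SD, n = 2 libraries each), with a log2 fold change of -0.59 (SE 0.104, adjusted p = 0.000159, edgeR). RAD51C and XRCC3, of the same protein family, did not pass the threshold: RAD51C had a log2 fold change of 0.065 (95% interval -0.12 to 0.25) and XRCC3 one of 0.13 (-0.081 to 0.34), and the libraries of the groups overlapped for both. Of XRCC3's exon bases, 76.7% are shared with KLC1 on the opposite strand, so its count is uncertain.

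WRN (GRCh37 chromosome 8, 30891304 to 31033654, plus strand), the helicase lost in Werner syndrome, held 30.9 and 29.7 CPM with PELP1 siRNA, against 36.7 and 36.9 CPM with control siRNA. It fell by 17.7% (log2 fold change -0.28, SE 0.090, adjusted p = 0.0223, edgeR). This call was lost with total-count scaling (adjusted p = 0.0550), with DESeq2's Wald test (adjusted p = 0.0690), without control library 1 (adjusted p = 0.244) and without control library 2 (adjusted p = 0.249). BLM, the helicase of the same RecQ family lost in Bloom syndrome, pointed the other way without passing the threshold (log2 fold change 0.25, 95% interval 0.050 to 0.46, adjusted p = 0.0580). BLM was called higher with upper-quartile scaling (adjusted p = 0.0460), with total-count scaling (0.0286), with the GC trend removed (0.0324) and without PELP1 siRNA library 2 (0.000475).

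BRCA1 and BRCA2, the mediators whose inherited loss predisposes to breast and ovarian cancer, had fold changes of opposite sign. BRCA1 (GRCh37 chromosome 17, 41196312 to 41322262, minus strand) held 122 and 107 CPM with PELP1 siRNA, against 95.3 and 98.95 CPM with control siRNA. It rose by 17.9% (log2 fold change 0.24, SE 0.075, adjusted p = 0.0198, edgeR; 0.340 without control library 1 and 0.184 without control library 2). Both PELP1 siRNA libraries lay above both control libraries, library 1 further above than library 2. BRCA2, which acts with PALB2 in strand exchange, held 36.9 and 31.0 CPM, against 41.9 and 38.3 CPM with control siRNA. BRCA2 missed the threshold (log2 fold change -0.24, 95% interval -0.44 to -0.038, adjusted p = 0.0700), and was called lower with no filter on low counts (adjusted p = 0.0347) and with the GC trend removed (-0.25, adjusted p = 0.0159). PALB2, which bridges the pair, stood at -0.15 on the same scale (95% interval -0.34 to 0.031, adjusted p = 0.208) and was called lower with the GC trend removed (-0.18, adjusted p = 0.0478). RBBP8, known as CtIP, which starts resection with the MRN complex, had one of 0.089 (95% interval -0.059 to 0.24).

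In the Fanconi pathway both partners of its central complex changed, in opposite directions. FANCD2 (GRCh37 chromosome 3, 10068054 to 10143616, plus strand), which is monoubiquitinated and clamps onto DNA together with FANCI, held 78.4 and 72.8 CPM with PELP1 siRNA, against 59.5 and 60.0 CPM with control siRNA. It rose by 26.5% (75.6 ± 4.01 and 59.8 ± 0.358 CPM, SD, n = 2 libraries each; log2 fold change 0.34, SE 0.078, adjusted p = 0.00212, edgeR; 0.112 without control library 1 and 0.0904 without control library 2). FANCI (GRCh37 chromosome 15, 89787176 to 89860492, plus strand) held 104 and 94.5 CPM, against 122 and 122 CPM with control siRNA. It fell by 18.8% (log2 fold change -0.30, SE 0.072, adjusted p = 0.00285, edgeR; 0.119 without control library 1 and 0.0965 without control library 2). The groups did not overlap for either gene. FANCA, a subunit of the core complex that upholds this ubiquitination, had a log2 fold change of -0.043 (95% interval -0.23 to 0.14), with overlapping libraries. It shares 19.6% of its exon bases with ZNF276 on the opposite strand, which itself fell (-0.60, adjusted p = 0.000363).

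Because ratios of 2 counts within a library do not depend on how libraries are scaled, they were set side by side as a description, without a test. The ratio of FANCD2 to FANCI counts was 0.757 and 0.770 in the PELP1 siRNA libraries, against 0.486 and 0.494 in the control libraries. The ratio of BRCA1 to BRCA2 counts was 3.30 and 3.47, against 2.27 and 2.58. Both ratios were higher in each PELP1 siRNA library than in either control library. This had to follow, since FANCD2 and BRCA1 lay above and FANCI and BRCA2 below both control libraries in each PELP1 siRNA library. Within the MRN complex the ratio of RAD50 to NBN counts was 0.964 and 0.970 with PELP1 siRNA, against 1.21 and 1.19 with control siRNA, and was lower in each PELP1 siRNA library than in either control library. The ratio of RAD50 to MRE11A counts overlapped between groups, at 7.40 and 8.09 against 8.06 and 7.76. The 2 Ku subunits, XRCC6 (Ku70) over XRCC5 (Ku80), stood at 0.736 and 0.779, against 0.686 and 0.692, the smallest relative shift of the 4 ratios that did not overlap.

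**Figure D2:**
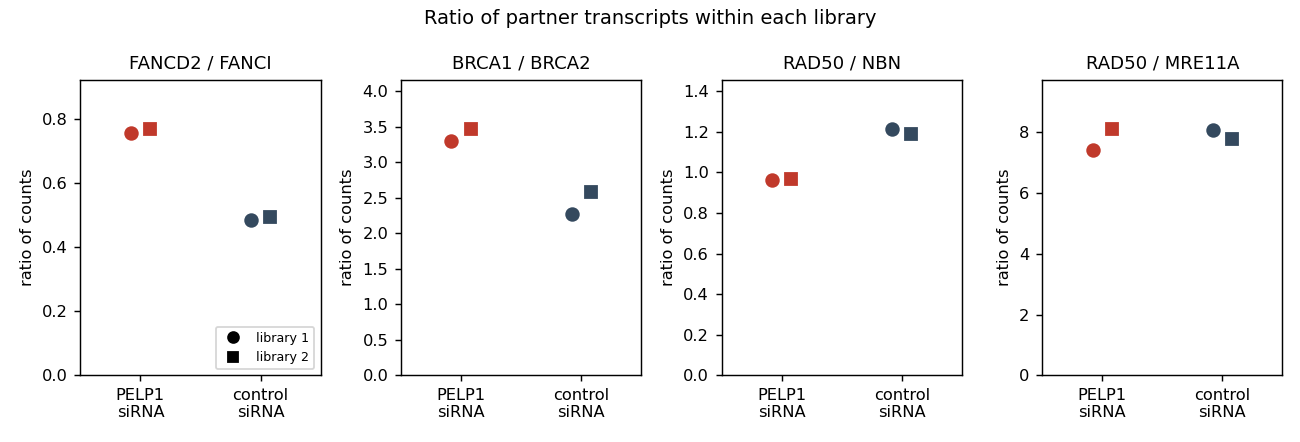
Ratio of the read counts of partner genes within each of the 4 libraries (y axis, linear from 0), for 4 of the pairs, PELP1 siRNA left of control siRNA; each point is 1 library. FANCD2 over FANCI lies at 0.757 and 0.770 with PELP1 siRNA, against 0.486 and 0.494 with control siRNA, while RAD50 over MRE11A overlaps.

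Among 5 checkpoint genes, 1 was higher, 1 was lower and 3 did not pass the threshold. CHEK2 (GRCh37 chromosome 22, 29083731 to 29138410, minus strand), the kinase that ATM activates, held 25.2 and 25.9 CPM with PELP1 siRNA, against 20.2 and 20.9 CPM with control siRNA. It rose by 24.2% (log2 fold change 0.31, SE 0.098, adjusted p = 0.0188, edgeR), and the call was lost with DESeq2's Wald test (adjusted p = 0.0819), without control library 1 (0.270) and without control library 2 (0.166). Both pairs of libraries were tight for this gene, of whose 50-base transcript windows 7.86% also occur elsewhere in the genome. Among the other genes called, that share was 7.29% for MRE11A, 6.84% for FANCD2, 5.5% for XRCC2 and at most 2.01% (WRN) for the rest. TP53BP1 (GRCh37 chromosome 15, 43695259 to 43802926, minus strand), the chromatin reader that protects ends from resection and favours end joining, held 122 and 113 CPM, against 138 and 138 CPM with control siRNA. It fell by 15.04% (log2 fold change -0.24, SE 0.069, adjusted p = 0.0131, edgeR; 0.236 without control library 1 and 0.239 without control library 2). Of its exon bases 28.8% are shared with TUBGCP4 on the opposite strand, which held 28.4 CPM with PELP1 siRNA and 37.1 CPM with control siRNA (adjusted p = 0.00465), and, with the strand setting of the counting not given, reads of the pair cannot be told apart.

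The apex kinases were not called. ATM held 43.2 and 35.9 CPM with PELP1 siRNA, against 45.6 and 44.3 CPM with control siRNA (log2 fold change -0.18, 95% interval -0.38 to 0.013, adjusted p = 0.157). PELP1 siRNA library 1 lay just below the lower control library and library 2 well below it. ATR held 111 and 93.5 CPM, against 99.5 and 97.1 CPM with control siRNA (log2 fold change 0.058, 95% interval -0.11 to 0.22, adjusted p = 0.626; -0.067 without PELP1 siRNA library 1), and its PELP1 siRNA libraries lay on either side of the controls. CHEK1, the kinase downstream of ATR, had a log2 fold change of 0.051 (95% interval -0.14 to 0.24). ATM was called lower with the GC trend removed (-0.20, adjusted p = 0.0359), and ATR and CHEK1 were not.

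**Figure D3:**
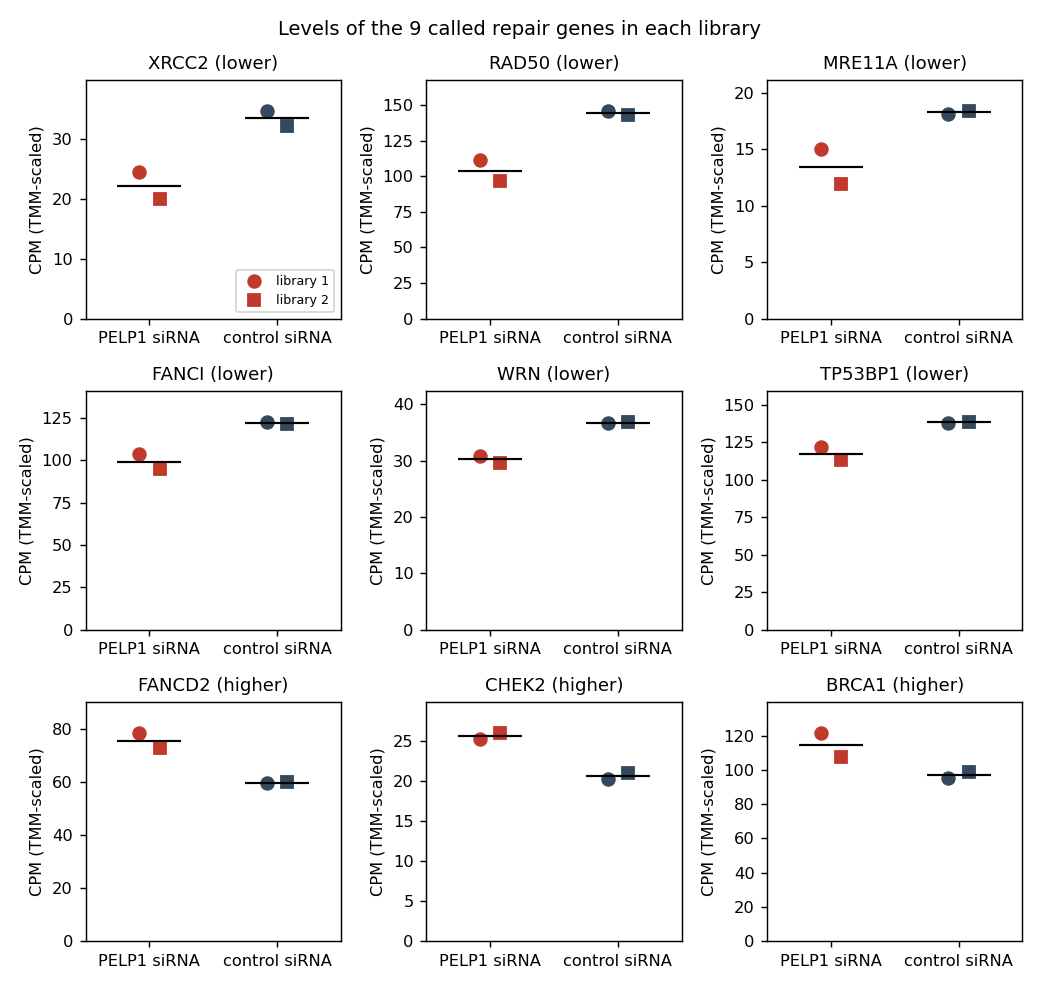
TMM-scaled CPM (y axes) of the 9 repair genes called at an adjusted p under 0.05 with PELP1 siRNA, in each of 2 PELP1 siRNA (left) and 2 control siRNA libraries (right); each point is 1 library and each line the group mean. The groups do not overlap in any panel, and RAD50, at 111 and 96.4 CPM against 146 and 143 CPM, shows the wider spread of the PELP1 siRNA pair.

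End joining held the most abundant of the genes and none that was called (1 of 4 with an unadjusted p under 0.05, and 0 with DESeq2 or limma-voom). XRCC5, which encodes Ku80, held 653 and 630 CPM with PELP1 siRNA, against 642 and 646 CPM with control siRNA, with a 95% interval of the log2 fold change of -0.13 to 0.12. XRCC6, which encodes Ku70, held 481 and 491 CPM, against 441 and 447 CPM with control siRNA (log2 fold change 0.13, 95% interval 0.0055 to 0.25, adjusted p = 0.112). It was called higher with total-count scaling (0.18, adjusted p = 0.0286) and with the GC trend removed (0.12, adjusted p = 0.0423). Of XRCC6, 27.01% of the 50-base windows of the transcript also occur elsewhere in the genome, which makes its count less certain. PRKDC, the catalytic subunit of DNA-dependent protein kinase, held 479 and 481 CPM, against 522 and 448 CPM with control siRNA, and is the 1 gene of the 4 whose control libraries lay further apart than its PELP1 siRNA libraries. LIG4, the ligase that seals the join, had a log2 fold change of -0.15 (95% interval -0.31 to 0.015; called lower at an adjusted p of 0.0262 with the GC trend removed).

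Mismatch repair had 3 genes and no call (1 with an unadjusted p under 0.05, and 0 with DESeq2 or limma-voom). MSH6, which recognises mispaired bases, had a log2 fold change of 0.089 (95% interval -0.046 to 0.22) and shares 24.2% of its exon bases with FBXO11. EXO1, the exonuclease that removes the mispaired strand, had one of -0.23 (-0.43 to -0.029, adjusted p = 0.0809), and was called lower with the GC trend removed (-0.25, adjusted p = 0.0209). PMS2, the endonuclease of the pathway, had one of -0.25 (-0.55 to 0.049). Its count is uncertain, since 53.9% of the 50-base windows of its transcript occur elsewhere in the genome. Without PELP1 siRNA library 1, MSH6 was called higher (adjusted p = 0.039) and PMS2 and EXO1 lower (adjusted p = 0.0113 and 0.0397).

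The 9 genes of excision repair had log2 fold changes from -0.24 to 0.15. None was called (1 had an unadjusted p under 0.05, and DESeq2 and limma-voom called 0), and none was called with the GC trend removed. OGG1 was called higher without PELP1 siRNA library 1 (adjusted p = 0.0399), and ERCC2 and DDB2 lower without PELP1 siRNA library 2 (adjusted p = 0.00573 and 0.0072). PARP1, which marks single-strand breaks with poly(ADP-ribose) and is the target of PARP inhibitors, held 216 and 215 CPM with PELP1 siRNA, against 206 and 213 CPM with control siRNA (log2 fold change 0.039, 95% interval -0.093 to 0.17, adjusted p = 0.689). Its partner in the same pathway, the scaffold XRCC1, had a log2 fold change of 0.078, the ligase LIG3 one of -0.15 and the 8-oxoguanine glycosylase OGG1 one of 0.13, with adjusted p from 0.277 to 0.455. In nucleotide excision, the damage sensor XPC had a log2 fold change of 0.084, its partner DDB2 one of -0.13, the verifier XPA one of 0.15, the helicase ERCC2 one of -0.24 and the nuclease subunit ERCC1 one of -0.062. Their adjusted p ran from 0.0789 (ERCC2) to 0.556 (ERCC1). The 95% intervals of all 9 lay between -0.44 and 0.40. On the opposite strand other annotated genes overlap 30.5% of the exon bases of LIG3, 29.0% of OGG1, 28.6% of ERCC1, 24.6% of XPC and 20.04% of XRCC1, so these counts are less certain.

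MGMT (GRCh37 chromosome 10, 131265454 to 131569247, plus strand), the only direct reversal enzyme in the set, was listed at 0 counts in all 4 libraries. A count of 0 allows up to 3 counts, or 0.131 to 0.161 CPM in a library (without TMM scaling), so no fold change can be given. U87 MG is known as a line with a methylated MGMT promoter, but methylation was not measured here. The 250 bases before the RefSeq start of MGMT (GRCh38.p14, chr10:129466991-129467240, plus strand) are shown because this was the only gene of the 37 without a read; capitals mark CpG, the dinucleotide that is methylated.
MGMT promoter: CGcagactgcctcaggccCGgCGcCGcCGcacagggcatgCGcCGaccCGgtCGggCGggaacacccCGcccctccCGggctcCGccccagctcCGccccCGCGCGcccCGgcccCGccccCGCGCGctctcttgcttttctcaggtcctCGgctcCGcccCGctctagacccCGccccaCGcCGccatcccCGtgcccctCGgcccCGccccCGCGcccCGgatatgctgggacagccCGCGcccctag
The window holds 36 CpG and is 80.4% G or C, beside a median of 11 CpG over 35116 RefSeq windows of the same length, of which 4.85% hold at least as many.

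Levels can be compared between genes only per length, here as CPM per kilobase of the canonical transcript. XRCC6 (229 CPM per kilobase with PELP1 siRNA, 209 with control siRNA) and XRCC5 (190 and 191) stood well above the rest in both groups, followed by PARP1 (54.2 and 52.7). At the low end stood ATM (3.06 and 3.48), BRCA2 (2.84 and 3.36), MRE11A (1.97 and 2.67) and PMS2 (1.74 and 2.09). RAD50 ranked 19th of 36 with PELP1 siRNA and 13th with control siRNA, and FANCD2 17th and 21st.

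Short words in the 3' UTR are given as a description. The 7-base words CTCAGTT and GCCTTGA were picked in an earlier analysis of these same fold changes, which fixes that lower genes carry them more often, both also occur in the PELP1 transcript, and the siRNA sequences were not in hand. A 3' UTR with either word was annotated for 5 of the 6 lower repair genes (RAD50, XRCC2, MRE11A, TP53BP1 and WRN), for 0 of the 3 higher ones and for 5 of the 27 not past the threshold (ERCC1, LIG3, NBN, PMS2 and XRCC5). Over all genes with an annotated 3' UTR the shares were 42.6% of the lower, 18.3% of the higher and 22.8% of those not past the threshold. Read the other way, 5 of 10 repair genes with a word were lower, and 1 of 26 without one (FANCI), beside 26.1% of 3085 and 11.9% of 9140 genes. The lower repair genes also had longer 3' UTRs, with a median of 3926 bases, beside 1076.5 over the 36 and 1357 over all genes, and a longer 3' UTR has more room for any word. The part of the words or of length in the falls was not tested.

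The sites of 3 lower genes are shown on the transcript strand (GRCh37) so that the words can be seen in place, in capitals. RAD50 holds a site at chr5:131978388-131978414 and a pair at chr5:131980746-131980772 and chr5:131980812-131980838 (plus strand), MRE11A holds 1 at chr11:94148736-94148760 and TP53BP1 1 at chr15:43699192-43699218 (minus strand). RAD50 is the 1 repair gene of the 36 with both words.
RAD50 first site: gataattactGCCTTGAaaatttatgg
RAD50 second site: tgagaagataCTCAGTTctatggtctt
RAD50 last site: cctccaaaatCTCAGTTttaagcatct
MRE11A site: aatctgtggtGCCTTGAcattaaaa
TP53BP1 site: cttgcagaaaCTCAGTTtaaggtaggt

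The PELP1 siRNA libraries differed from each other along GC content, and the repair genes followed. In 25 of 36 repair genes PELP1 siRNA library 2 lay below library 1, with a median absolute log2 ratio of 0.13, beside 17 of 36 and 0.045 in the control pair. The log2 ratio of library 2 over 1 had a Spearman correlation with transcript GC of 0.74 over the 36 repair genes in the PELP1 siRNA pair and of 0.22 in the control pair. Over 10058 genes of at least 5 CPM in every library it was 0.63 and -0.22. These are correlations across genes of the same libraries, which are not independent replicates. Against transcript length the same log2 ratio gave -0.53 over the repair genes in the PELP1 siRNA pair, and the relation of length to GC was not measured. The log2 fold change between groups correlated with transcript length at -0.47 over the repair genes and -0.19 over the 10058 genes. With GC it gave 0.30 and -0.091. The part of length or GC in the fold changes was not tested. LIG4 (35.2% GC) differed by -16.1% in PELP1 siRNA library 2 relative to library 1, and XRCC3 (62.8% GC) by 20.1%. With the GC trend removed, 5 repair genes were higher and 12 lower, 47.2% of the 36, beside 36.7% of all genes (18% higher and 18.7% lower). All 9 genes called before were called again in the same direction, and 8 more were, of which XRCC6 and BLM were higher and ATM, BRCA2, PALB2, NBN, LIG4 and EXO1 lower.

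**Figure D4:**
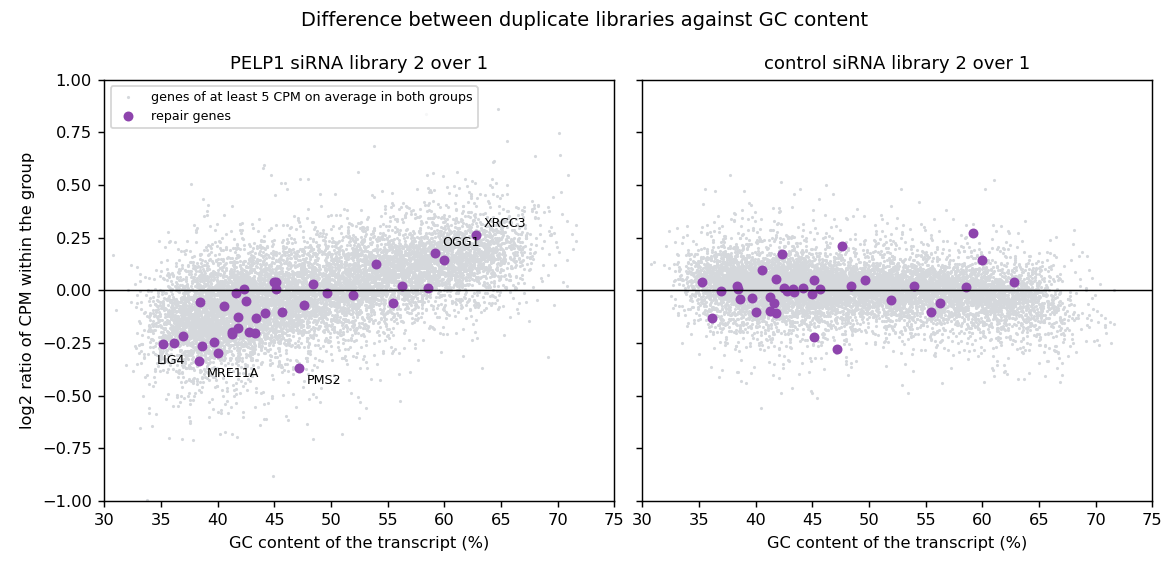
Log2 ratio of library 2 over library 1 within each group (y axis) against transcript GC in percent (x axis), PELP1 siRNA pair left and control pair right; small points are genes of at least 5 CPM on average in both groups and large points the 36 repair genes. In the PELP1 siRNA pair the ratio rises with GC (Spearman 0.74 over the repair genes, 0.22 in the control pair).

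The calls also depended on which libraries entered the fit. Without control library 1 or without control library 2, RAD50 and XRCC2 were the only 2 of the 9 still called, both lower, while the share of all genes called was 10.9% and 12.5%. With the GC trend removed as well, 7 of the 9 were called without control library 1 and 8 without control library 2, beside 23.1% and 23% of all genes. All 9 were called without either PELP1 siRNA library, together with further genes: 7 higher and 13 lower in all without library 1, beside 41% of all genes, and 7 higher and 9 lower without library 2, beside 38.8%. Without PELP1 siRNA library 1 the further genes were XRCC3, XRCC6, MSH6 and OGG1 (higher) and ATM, BRCA2, PALB2, NBN, LIG4, PMS2 and EXO1 (lower). Without PELP1 siRNA library 2 they were ATR, RBBP8, BLM and XRCC6 (higher) and EXO1, ERCC2 and DDB2 (lower). Such fits take the spread of the lone library from the group that still has a pair. RAD50 and XRCC2 were past the threshold in all 19 alternative fits, and the other 7 were not. Their log2 fold changes over the fits without 1 library ran from -0.58 to -0.37 for RAD50 and from -0.74 to -0.44 for XRCC2.

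Other genes of the same pathways, from lists that leave out the 37, were called about as often. Of 136 tested, 21 were higher, 15 were lower and 100 did not pass the threshold (26.5% called, beside 27.9% of all genes). Their median log2 fold change was 0.052. The calls were spread over the roles. Of 29 other checkpoint genes 6 were higher and 2 lower, led by RPA1 (0.46, adjusted p = 1.09e-05), a subunit of the single-strand binding complex, and CLSPN (-0.43, adjusted p = 0.000362), the adaptor between ATR and CHEK1. Of 25 other recombination genes 4 were higher and 2 lower, led by SHFM1 (0.29), a BRCA2 partner, and RAD51AP1 (-0.31), and of 15 other Fanconi genes 3 were higher and 1 lower, led by C19orf40 (0.40) and the core subunit FANCE (-0.47). End joining had 2 higher and 1 lower of 11, led by the polymerases POLQ (0.28) and POLM (-0.72). Mismatch repair had 4 higher and 2 lower of 15, led by RFC5 (0.30), a clamp loader subunit, and MLH3 (-0.29), and 1 of 3 direct reversal genes was higher, the demethylase ALKBH3 (0.32). Base excision had 1 higher and 3 lower of 17, led by POLB (0.59), its gap-filling polymerase, and TDG (-0.61), a glycosylase. Nucleotide excision had 0 higher and 4 lower of 21, led by GTF2H3 (-0.52), a subunit of TFIIH. The adjusted p of these named genes ran up to 0.0357 (FANCE; edgeR).

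FANCD2, BRCA1 and many recombination genes are transcribed mostly in S and G2 phase. Of 38 genes of S and G2/M phase, 8 were higher, 4 were lower and 26 did not pass the threshold. That is 31.6% called, beside 27.9% of all genes, with a median log2 fold change of 0.067. The calls were led by the activator E2F2 (0.76) and the replicative helicase subunit MCM4 (-0.52). Of 29 genes induced by p53, the transcription factor that checkpoint kinases activate, 2 were higher, 10 were lower and 17 did not pass the threshold. Their share called was 41.4%, beside 27.9% of all genes (12.9% higher and 15% lower), with a median log2 fold change of -0.10. The p53 targets with the smallest adjusted p were CDKN1A, the inhibitor p21, with 96.4 and 102 CPM in the PELP1 siRNA libraries, against 264 and 262 CPM in the control libraries (-1.41), and the cyclin CCNG1 (0.56). The part of cell cycle position in the changes of the repair genes was not tested.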

How the data were processed

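Libraries were made from total RNA with a TruSeq Total RNA kit and read as 50 bp single ends, per the labels' protocols. CASAVA 1.8.2 and TopHat2 2.0.8b are named together with HTSeq and the build hg19 (GRCh37) per the submitters' processing notes. HTSeq-DESeq on duplicate runs is what the design text gives. The authors deposited raw counts per gene symbol. The sources used here do not give the HTSeq version, the strand setting or the annotation release. The counter's summary lines (36.0 to 37.6% of each column) were left out.

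All 4 libraries entered 1 fit with edgeR 4.0.16 (R 4.3.3): filterByExpr (minimum count 10, total 15; 13234 genes kept), TMM scaling and a robust quasi-likelihood test with Benjamini-Hochberg adjustment over all genes tested, threshold 0.05. The biological coefficient of variation was 5.23%, so spread between libraries limits precision more than depth does for most of these genes. The limit from 3 counts covers counting error only. DESeq2 1.42.0 and limma-voom (limma 3.58.1) were alternatives, as were other scalings, other filters, a fit that is not robust, a replicate block and leaving out each library. Removal of the GC trend was added after seeing the data. It used each library's deviation from the gene's mean log level over all libraries in the fit. A smooth trend of that deviation on transcript GC was taken out as an offset. Any GC trend between the groups is therefore taken out too, and genes without a GC value were left as they were. The fit was tested on data simulated with the same dispersion for every gene and library and no GC trend. That test therefore does not cover the wider spread and GC trend of the PELP1 siRNA pair.

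Coordinates, transcript lengths, GC, 3' UTR words and shared exon bases came from GENCODE v44lift37 on GRCh37, and repeats of 50-base windows from a search of that genome. The MGMT promoter came from RefSeq.

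The members and lists were chosen with earlier results of these data known. Values per library are given for every gene called and for ATM, ATR, BRCA1, BRCA2, PARP1 and MGMT. In each list of other genes the gene of smallest adjusted p, higher and lower, is named. Of other genes, NBN, XRCC5, XRCC6 and PRKDC were given per library after their values were seen, to show the complexes whole.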

Additional observations from a re-analysis of the deposited data

How the results depend on the processing

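RAD50 and XRCC2 stayed lower past the threshold in all 19 alternatives. With total-count scaling 5 repair genes were higher instead of 3. DESeq2's Wald test called 1133 genes higher instead of 1712. With the GC trend removed, with or without the replicate block, 5 repair genes were higher and 12 lower, and with both 2678 genes were higher. The numbers were not found to pair the libraries (correlation of deviations -0.080 over 9500 genes). The replicate block alone gave 3 higher and 6 lower repair genes and 3581 genes in all. Over the fits without 1 library, 0 to 7 repair genes were higher and 2 to 13 lower, and 1466 to 5528 genes were called (523 to 2724 higher, 943 to 2804 lower). The other 7 called genes each missed the threshold without control library 1 and without control library 2 (FANCD2 at an adjusted p of 0.112 and 0.0904, FANCI at 0.119 and 0.0965, MRE11A at 0.0619 and 0.0800). With the GC trend removed as well, these were 1 to 7 higher, 7 to 13 lower (10 without PELP1 siRNA library 2) and 3098 to 5701 in all (1406 to 2860 higher, 1681 to 2841 lower). Signs turned only in genes not called. Over the fits without 1 library the log2 fold change ran from -0.067 to 0.18 for ATR, from -0.0021 to 0.26 for XRCC3, from -0.095 to 0.0065 for FANCA, from -0.029 to 0.025 for XRCC5 and from -0.12 to 0.097 for PRKDC. With total counts FANCA was 0.0046, XRCC5 0.042 and PRKDC 0.032, and XRCC5 was 0.0036 with the upper quartile. With the GC trend removed and 1 library left out, ATR was -0.034, CHEK1 -0.011 and -0.013, RAD51C -0.024, FANCA 0.051 and 0.027, PRKDC 0.081 and ERCC1 0.0019. Total-count scaling also turned the split of all calls to 2272 higher and 1597 lower. The cause of these shifts was not tested.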
